A study of Homo sapiens with 4 samples.

Results

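The genes described here are 9 direct transcriptional targets of the tumour suppressor p53: MDM2, GADD45A, RRM2B, DDB2, TP53I3, ZMAT3, TIGAR, SESN1 and PHLDA3. They were identified by gene symbol in the annotation of the array, where each has 1 probe set, and they make up 9 of 17687 named genes. The 9 genes and the lists below were picked with earlier results of these data known. Their counts beside those of all genes are therefore descriptions and not tests. Expression was measured in DU145 cells, an androgen-independent line established from a human prostate cancer. Cells were exposed for 48 h to No.10-3 at 5 µM, to 0.5 µM C-30, to 2 µM C-30 or to vehicle, and 1 array was deposited for each condition. Both compounds are described in the series as inhibitors of PSF, the nuclear RNA-binding protein encoded by SFPQ. All 4 arrays carry RNA of the same line in serum-containing medium, and whether a culture was pooled or repeated is not given in the sources used here. With no replicates there is no standard deviation, interval or p-value for any value below, no order between arrays can be set against a replicate error, and all statements describe these 4 arrays.

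p53 is a transcription factor that is stabilised after DNA damage and other stresses and binds a pair of short palindromic 10-base sites in its target genes. Its targets stop the cell cycle, repair DNA, supply nucleotides, adjust metabolism and feed back on p53 itself through the ubiquitin ligase MDM2. DU145 is known to carry missense mutations in the p53 gene that impair this function, and several of the targets are also reached by other stress pathways. The mutation, the p53 protein and the transcript of the p53 gene are not analysed here, so "p53 target" names what these genes are known for and not a measured dependence.

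Values are log2 signals made by RMA, the usual summary of Affymetrix probe sets, and a difference is the log2 signal of the first array minus that of the second. A log2 difference of 1 is called 2-fold, and a gene was counted when the higher of its 2 signals reached a floor of 5.56, the median over the named probe sets. Background is taken as the 95th percentile over 612 negative control probe sets, which stood at 7.06 with No.10-3, 7.11 with 0.5 µM C-30, 7.15 with 2 µM C-30 and 7.32 with vehicle. Most of the p53 targets lie close to that level: MDM2 alone was above it on all 4 arrays, TP53I3 and PHLDA3 on 3, GADD45A and DDB2 on 2, RRM2B on 1, and ZMAT3, TIGAR and SESN1 on none. Because the level was highest with vehicle, these counts depend on the array. The vehicle signal of TP53I3, 7.18, was above the levels of all 3 treated arrays, and that of PHLDA3, 7.07, was above the No.10-3 level. Differences of genes under this level on either array are inexact. In bulk RNA, fewer cells that express a gene and less of its RNA per cell cannot be told apart.

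Markers fixed for the line were mixed in level. The epithelial genes KRT8, KRT18 and EPCAM and the mesenchymal gene VIM, which carcinoma lines also express, were above background on all 4 arrays. The epithelial adhesion gene CDH1, which marks this cell type, was under it on all of them, with signals between 4.33 and 5.57. The median difference of these 5 genes from vehicle was 0.63 with No.10-3, 0.00 with 0.5 µM C-30 and -0.52 with 2 µM C-30. None of 3 androgen response genes, 3 fibroblast genes and 3 endothelial genes was above background on any array. Of 4 leukocyte genes, CD68, a lysosomal protein gene that is not restricted to leukocytes, was above it on each array, and the summed linear signal of the 4 was 792 with No.10-3, 479 with 0.5 µM C-30, 577 with 2 µM C-30 and 466 with vehicle. The part of other cell types in the values below was not tested. SFPQ itself had signals of 12.61 with No.10-3, 12.60 with 0.5 µM C-30 and 12.68 with 2 µM C-30, against 12.59 with vehicle. Spiked ERCC controls had median differences from vehicle of -0.16 with No.10-3, -0.04 with 0.5 µM C-30 and -0.06 with 2 µM C-30. The robust SDs of these differences were 0.126 with No.10-3, 0.166 with 0.5 µM C-30 and 0.271 with 2 µM C-30. Of the 2197 positive control probe sets, 6.55% differed from vehicle by at least 2-fold with No.10-3, 8.06% with 0.5 µM C-30 and 11.3% with 2 µM C-30, and 6.55% between the doses of C-30, each share above that of all genes past the floor given below.

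The sequence around the transcript starts gives the values some context, and sites elsewhere in the genes were not searched. RefSeq windows from 250 bases before to 50 bases after a transcript start (GRCh38.p14) were at hand for 6 of the 9 genes, 13 windows in all, and not for GADD45A, RRM2B and PHLDA3. A 10-base site was defined as 3 purines, C, A or T at both central positions, G and 3 pyrimidines, a pattern that reads the same on both strands. An exact pair of such sites separated by at most 13 bases was found in 1 of the 6 genes, DDB2, and in 0.0366% of all 27305 genes with a window. Pairs with up to 3 mismatches in all and a spacer of 0 or 1 base, a rule chosen after the sequences had been seen, were found in 3 of the 6 genes, DDB2, MDM2 and SESN1, and in 11.9% of all genes with a window. The 6 genes have 13 windows, and all 27305 genes have 35116, so the 6 hold more windows per gene. Of all windows, 9.75% held such a pair. The 3 windows are printed 5′ to 3′ on the strand of the gene, because each holds a pair under these rules. Capitals mark the pairs, the exact pair in DDB2 and pairs with mismatches in MDM2 and SESN1. They lie at chr12:68808767-68809066 for MDM2 (plus strand, the downstream start of the gene), chr11:47214724-47215023 for DDB2 (plus strand) and chr6:109008939-109009238 for SESN1 (minus strand).
MDM2: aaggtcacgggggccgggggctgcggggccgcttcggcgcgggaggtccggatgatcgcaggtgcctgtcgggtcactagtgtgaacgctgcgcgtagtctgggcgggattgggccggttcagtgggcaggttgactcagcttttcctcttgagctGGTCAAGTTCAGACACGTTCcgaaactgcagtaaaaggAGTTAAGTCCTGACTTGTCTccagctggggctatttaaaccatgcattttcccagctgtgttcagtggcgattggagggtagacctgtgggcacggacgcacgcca
DDB2: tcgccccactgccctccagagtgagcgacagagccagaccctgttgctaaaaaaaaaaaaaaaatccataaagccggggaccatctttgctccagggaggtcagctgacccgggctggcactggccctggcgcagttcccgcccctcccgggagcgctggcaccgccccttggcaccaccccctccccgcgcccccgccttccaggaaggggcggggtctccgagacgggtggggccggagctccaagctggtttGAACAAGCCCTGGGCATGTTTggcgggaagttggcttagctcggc
SESN1: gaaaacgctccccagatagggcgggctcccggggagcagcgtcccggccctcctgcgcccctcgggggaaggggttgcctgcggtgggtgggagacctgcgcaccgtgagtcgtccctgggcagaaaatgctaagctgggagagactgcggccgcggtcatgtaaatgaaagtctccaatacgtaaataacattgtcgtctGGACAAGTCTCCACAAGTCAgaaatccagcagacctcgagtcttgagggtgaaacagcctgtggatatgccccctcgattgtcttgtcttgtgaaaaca
In MDM2 the first pair begins 94 bases and the second 56 bases before the transcript start, with 2 and 3 mismatches. The SESN1 pair begins 49 bases before the start and has 3 mismatches, and the DDB2 pair lies just after the start with a spacer of 1 base. The composite element of ATF4 with a C/EBP partner, TGATGNAAN on either strand, was in none of the 6 genes' windows and in 4.45% of all genes with a window. A match is a description of letters and no match refers to these windows only. The probe set of a gene gives 1 value for the gene, and which of its transcripts the probes read is not given in the sources used here.

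Treated arrays stood above vehicle for most of the 9 genes, mostly by small amounts. Vehicle was the lowest of the 4 arrays for 7 genes, the exceptions being DDB2, lowest with 0.5 µM C-30, and TIGAR, lowest with 2 µM C-30. The 7 include SESN1, under the floor, and ZMAT3, within background on all 4 arrays. The share of all genes that were lowest with vehicle was not counted, so this count has no all-gene value beside it. The 3 treated arrays share 1 vehicle array, so a low vehicle signal enters all 3 differences. Where 3 differences from vehicle are given together, they are those of No.10-3, 0.5 µM C-30 and 2 µM C-30, in that order.

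**Figure D1:**
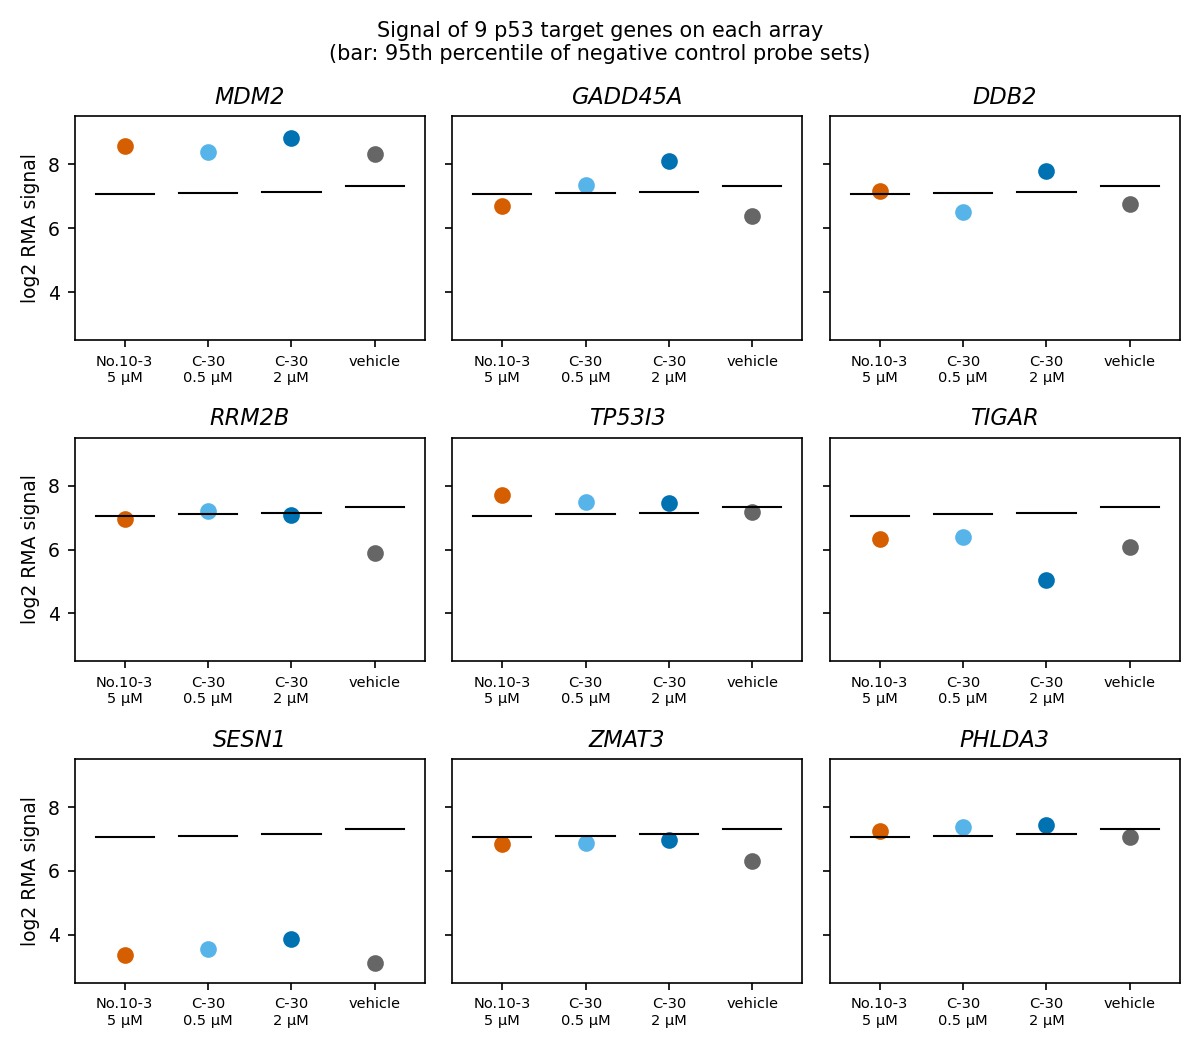
Log2 RMA signal of each of the 9 genes on the 4 arrays, 1 point per array, with a bar at the background level of that array, the 95th percentile of its negative controls. MDM2 lies above the bar on all 4 arrays, SESN1, TIGAR and ZMAT3 lie below it on all 4, and GADD45A and DDB2 are clearly above it with 2 µM C-30.

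MDM2 (chromosome 12, 68808172 to 68850686 in GRCh38.p14, as for all positions below) encodes the ubiquitin ligase that marks p53 for degradation and is itself transcribed from a p53-driven start, the window shown above. Its log2 signal was 8.57 with No.10-3, 8.40 with 0.5 µM C-30 and 8.82 with 2 µM C-30, against 8.32 with vehicle. The differences from vehicle were 0.25, 0.08 and 0.50, none of them past 2-fold. MDM2 was the best measured of the 9 genes, and its highest value, with 2 µM C-30, was 1.42-fold the vehicle value.

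Among the genes of growth arrest, DNA repair and nucleotide supply, GADD45A (chromosome 1, 67685201 to 67688334) encodes a stress protein that binds cell cycle and repair factors and activates stress kinases. It had signals of 6.69 with No.10-3, 7.34 with 0.5 µM C-30 and 8.10 with 2 µM C-30, against 6.37 with vehicle. The No.10-3 and vehicle signals were within background and both C-30 signals were above it. Its difference from vehicle was 0.32 with No.10-3, 0.97 (1.96-fold) with 0.5 µM C-30 and 1.73 (3.32-fold) with 2 µM C-30. The last ranked 27 from the top among 9319 genes past the floor and was the largest difference of any of the 9 genes.

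DDB2 (chromosome 11, 47214454 to 47239217) encodes the subunit that recognises ultraviolet damage for nucleotide excision repair, and its window holds the exact p53 pair. Its signal was 7.16 with No.10-3, 6.49 with 0.5 µM C-30 and 7.79 with 2 µM C-30, against 6.76 with vehicle. The differences from vehicle were 0.40, -0.26 and 1.04, so the lower and the higher dose of C-30 lay on opposite sides of vehicle. The value with 0.5 µM C-30 and the vehicle value were both within background.

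RRM2B (chromosome 8, 102204501 to 102238961) encodes the p53-inducible small subunit of ribonucleotide reductase, which supplies nucleotides for repair outside S phase. It had signals of 6.96 with No.10-3, 7.19 with 0.5 µM C-30 and 7.07 with 2 µM C-30, against 5.91 with vehicle. It was the only one of the 9 genes past 2-fold on all 3 treated arrays, at 1.05 (2.08-fold), 1.29 (2.44-fold) and 1.16 (2.24-fold). How many of all genes were past 2-fold on all 3 was not counted. Only the signal with 0.5 µM C-30 was above background, and the vehicle signal was 1.05 to 1.29 lower than the treated ones, so all 3 differences rest on the same low value. The difference for No.10-3 was under 2-fold after quantile normalization and after centring (0.96 to 1.05 over the 5 alternatives in scaling, probe set or table).

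Metabolic targets differed among themselves. TP53I3 (chromosome 2, 24077433 to 24084834), a quinone oxidoreductase gene linked to oxidative stress, had signals of 7.71 with No.10-3, 7.49 with 0.5 µM C-30 and 7.46 with 2 µM C-30, against 7.18 with vehicle. It stood 0.53 over vehicle with No.10-3, 0.31 with 0.5 µM C-30 and 0.28 with 2 µM C-30. TIGAR (chromosome 12, 4321213 to 4360028) encodes a fructose bisphosphatase that lowers glycolytic flux. Its signal was 6.34 with No.10-3, 6.41 with 0.5 µM C-30 and 5.05 with 2 µM C-30, against 6.08 with vehicle. It was the only one of the 9 lower than vehicle by 2-fold on any array, at -1.04 with 2 µM C-30, where it was 2.05-fold lower. All 4 signals of TIGAR were within background, and the difference was under 2-fold at -0.96 when each array was centred on its median. SESN1 (chromosome 6, 108984309 to 109094846) encodes a sestrin, which restrains mTORC1 when amino acids are short. It had signals of 3.37 with No.10-3, 3.55 with 0.5 µM C-30 and 3.86 with 2 µM C-30, against 3.13 with vehicle. These lie under the floor and far under background on every array, so SESN1 entered no count of genes past the floor or past 2-fold, though it is among the 9 genes in counts of direction and in the medians.

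The remaining genes act on RNA and on growth signalling. ZMAT3 (chromosome 3, 179017223 to 179072513) encodes a zinc finger protein that binds RNA and regulates splicing and stability of transcripts. Its signal was 6.84 with No.10-3, 6.86 with 0.5 µM C-30 and 6.98 with 2 µM C-30, against 6.32 with vehicle, all within background. The treated arrays thus lay close together, 0.52, 0.54 and 0.66 above vehicle. PHLDA3 (chromosome 1, 201464278 to 201469188) encodes a small protein that competes with AKT for membrane lipids. Its signal was 7.25 with No.10-3, 7.39 with 0.5 µM C-30 and 7.42 with 2 µM C-30, against 7.07 with vehicle, which was the only one of the 4 within background. Its differences were 0.17, 0.31 and 0.35.

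With No.10-3 at 5 µM, all 9 genes were higher than with vehicle, by 0.17 to 1.05, and their median difference was 0.32 beside 0.05 for all genes past the floor. The 5 markers of the line were also all higher on this array, VIM by 0.92, EPCAM by 0.69 and KRT8 by 0.63. KRT18 and CDH1 were higher by 0.27 each. Their summed linear signal of all 5 was 53304 against 30311 with vehicle. Most of this sum is VIM, the brightest of the 5, with log2 signals of 15.22 with No.10-3 and 14.30 with vehicle. The part of these markers in the result was not tested. Of all 9219 genes past the floor, 54% were higher by any amount, and of the 8 p53 targets past it all 8 were. RRM2B was the 1 gene of 8 past 2-fold, where 5.68% of all genes were past it in either direction, 4.36% upwards and 1.32% downwards. Both RRM2B signals in this comparison were within background. The direction of all 9 differences was the same under each scaling tried, with the smallest, that of PHLDA3, at 0.06 to 0.17.

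With 0.5 µM C-30, 8 of the 9 genes were higher than with vehicle and DDB2 was lower, and the median difference was 0.33 beside -0.04 for all genes past the floor. By any amount, 46.9% of 9267 genes were higher, and 7 of the 8 p53 targets past the floor were. RRM2B alone passed 2-fold, in 1 of 8 cases, against 6.17% of all genes in either direction, 3.4% upwards and 2.77% downwards. GADD45A, at 0.97, lay just under the threshold, and the next gene was ZMAT3 at 0.54.

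With 2 µM C-30 the differences of the 9 genes from vehicle lay between -1.04 for TIGAR and 1.73 for GADD45A. GADD45A, RRM2B and DDB2 were past 2-fold upwards and TIGAR downwards, 4 of 8 genes past the floor, where 10.8% of all 9319 genes were past it in either direction, 4.67% upwards and 6.15% downwards. By any amount, 46.4% of all genes and 7 of the 8 were higher. RRM2B and TIGAR were within background on both arrays, and GADD45A and DDB2 were above it on the treated array only. The median difference of the 9 was 0.66, the value of ZMAT3. Over the 8 past the floor it was 0.58, beside -0.06 for all genes past it.

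**Figure D2:**
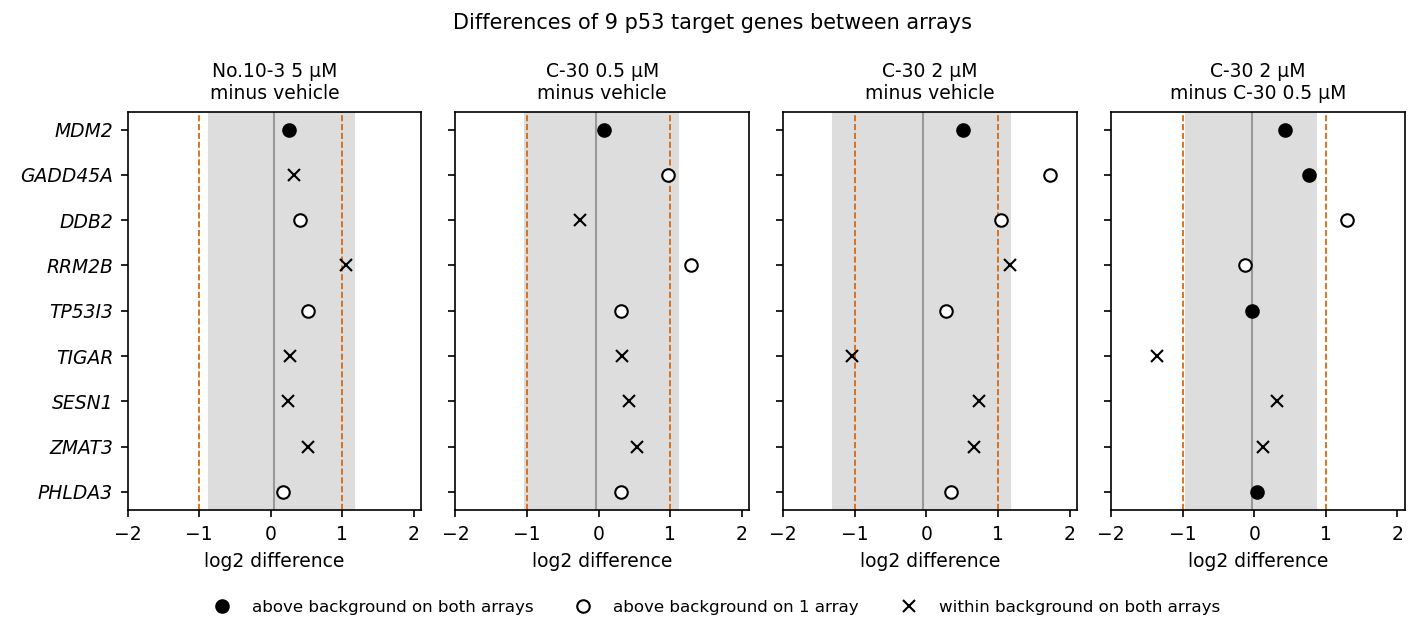
Log2 differences of the 9 genes in 4 pairs of arrays, with the central 95% of all genes past the floor in grey, their median as a grey line and the 2-fold limits as dashed lines. Filled points are above background on both arrays, open points on 1 and crosses on neither. GADD45A at 1.73 with 2 µM C-30 and RRM2B at 1.29 with 0.5 µM C-30 lie outside the grey band against vehicle, and DDB2 and TIGAR lie outside it between the doses.

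The doses of C-30 can be set against each other without the vehicle array. DDB2 was higher at 2 µM than at 0.5 µM by 2.46-fold, at rank 37 from the top of 9282 genes past the floor, and TIGAR was 2.57-fold lower, at -1.36 on the log2 scale. These were the 2 of 8 genes past 2-fold, where 3.57% of all genes were past it in either direction, 1.39% upwards and 2.18% downwards. TIGAR was within background at both doses and DDB2 at the lower dose. GADD45A was above background at both doses and differed by 0.76 (1.70-fold), with 3.78% of genes past the floor showing a larger difference. By any amount, 5 of the 8 were higher at 2 µM, as were 46.6% of all genes. MDM2 was higher by 0.43 at 2 µM and SESN1 by 0.31, whereas ZMAT3 at 0.12, PHLDA3 at 0.03, TP53I3 at -0.03 and RRM2B at -0.12 hardly differed between the doses. The sign for TP53I3 turned under another scaling, to 0.01. The median was 0.12 over the 9 genes and 0.07 over the 8 past the floor, beside -0.03 for all genes past it. No.10-3 was given at 5 µM, a dose at which C-30 was not, so the values of the compounds stand side by side above and are not compared.

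**Figure D3:**
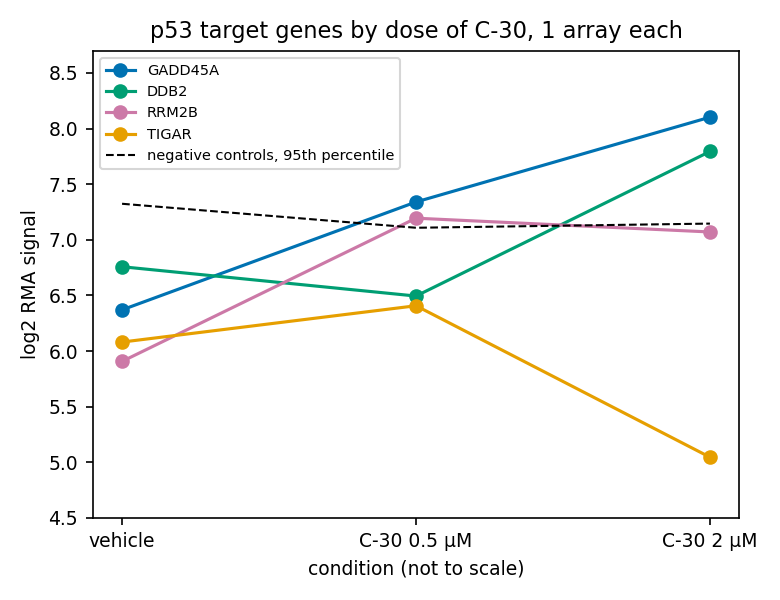
Log2 RMA signal of GADD45A, DDB2, RRM2B and TIGAR with vehicle and with C-30 at 0.5 and 2 µM, 1 array per point, and the 95th percentile of the negative controls as a dashed line. GADD45A stands at 6.37, 7.34 and 8.10 along the series, RRM2B reaches 7.19 at the lower dose, and DDB2 and TIGAR differ from vehicle by more than 2-fold at the higher dose only.

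A wider list of 35 p53 targets, of which 30 were measured, lay on both sides of vehicle. With No.10-3, 10 of the 21 past the floor were higher and 11 lower, none past 2-fold, with a median of -0.07 over the 30. Of all genes past the floor, 54% were higher on that array and 5.68% were past 2-fold in either direction. At 0.5 µM C-30, 8 of 20 were higher and 12 lower, with a median of -0.09 over the 30, and CCNG1 was the 1 gene past 2-fold. The shares of all genes were 46.9% higher and 6.17% past 2-fold in either direction. At 2 µM C-30, 9 of 21 were higher and 12 lower, and PMAIP1 at 1.22 and SERTAD1 at 1.03 were past 2-fold upwards with both signals within background. The median there was 0.06 over the 30 measured and -0.10 over the 21 past the floor. Of all genes past the floor, 46.4% were higher at 2 µM C-30 and 10.8% were past 2-fold in either direction.

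Of that wider list, 6 genes had the largest differences among those above background on at least 1 array of the pair. CCNG1, which encodes cyclin G1, a partner of the phosphatase that acts on MDM2, had signals of 7.80 with No.10-3, 8.56 with 0.5 µM C-30 and 7.73 with 2 µM C-30, against 7.45 with vehicle. SESN2, the stress-inducible relative of SESN1, had signals of 7.20 with No.10-3, 7.23 with 0.5 µM C-30 and 8.50 with 2 µM C-30, against 7.58 with vehicle, so it stood 0.93 above vehicle at the higher dose of C-30 and 1.27 above the lower dose. TRIAP1, an inhibitor of apoptosis, was 0.91 above vehicle with 0.5 µM C-30 and -0.10 with 2 µM C-30. PML, the scaffold gene of nuclear bodies, was lower with 2 µM C-30 at 6.92 against 7.90 with vehicle. The pro-apoptotic gene BAX stood at -0.68 with 2 µM C-30, and the nuclease gene AEN at -0.63 with 0.5 µM C-30. CDKN1A, the p21 inhibitor of cyclin-dependent kinases and the best known p53 target, was named after its values were seen. It had signals of 8.06 with No.10-3, 8.75 with 0.5 µM C-30 and 9.17 with 2 µM C-30, against 8.54 with vehicle, and was not past 2-fold on any array.

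Genes that act on p53 were also examined, 12 of 15 listed being measured. The damage kinase gene ATM was past 2-fold on all 3 treated arrays, with signals of 9.03 with No.10-3, 9.33 with 0.5 µM C-30 and 8.84 with 2 µM C-30, against 7.75 with vehicle. All 4 of its signals were above background, and its differences were 1.28, 1.59 and 1.10. These differences share the vehicle signal, and how many of all genes were past 2-fold on all 3 arrays was not counted. RCHY1, which encodes a ubiquitin ligase for p53, was at 1.03 with 2 µM C-30 with both signals within background. It was the only other regulator past 2-fold among those past the floor. Regulators past 2-fold were thus 1 of 9, 1 of 10 and 2 of 10, where 5.68%, 6.17% and 10.8% of all genes were past it. The related kinase gene ATR was at 0.81, 1.07 and 1.08 but lay under the floor on every array. ATM and ATR encode the kinases that signal DNA breaks and stalled replication to p53, and CHEK2 and CHEK1 the kinases that act after them. MDM4, the partner of MDM2 in holding p53 inactive, stood 0.76 above vehicle with No.10-3, 0.07 with 0.5 µM C-30 and 0.33 with 2 µM C-30. The deubiquitinase gene USP7 was at 0.14, -0.97 and -0.45. CHEK1 at 0.26, -0.01 and 0.08 and the phosphatase gene PPM1D at -0.04, 0.16 and 0.06 stayed near vehicle, and COP1, another ubiquitin ligase gene, was at 0.29, 0.00 and 0.56. TP53BP1 at 0.22, 0.26 and -0.10, CHEK2 at -0.23, 0.34 and 0.31, KAT5 at -0.32, -0.04 and -0.19 and TP73, under the floor, at 0.28, 0.32 and 0.31 completed the list. CHEK2 and KAT5 were within background on every array, and COP1 was within it with 0.5 µM C-30 and with vehicle. The list medians were 0.24, 0.21 and 0.31 over the 12 genes. Over the regulators past the floor they were 0.22, 0.12 and 0.20, beside 0.05, -0.04 and -0.06 for all genes past it.

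Relatives and protein partners of the 9 genes, some of which are also in the wider list, differed from vehicle in both directions. GADD45B, the close relative of GADD45A, was lower on every treated array, with signals of 8.81 with No.10-3, 9.21 with 0.5 µM C-30 and 8.84 with 2 µM C-30, against 9.79 with vehicle, which gives -0.98, -0.58 and -0.96. GADD45G was under the floor at 0.06, 0.20 and 0.26. The other subunits of ribonucleotide reductase differed less than RRM2B, the large subunit gene RRM1 by 0.77, 0.82 and 0.48 and the S-phase small subunit gene RRM2 by 0.41, -0.17 and -0.27. DDB1, the partner of DDB2 in damage recognition, was at 0.03, -0.33 and -0.30, CUL4A, the scaffold of their ubiquitin ligase, at 0.85, -0.28 and -0.00, and the damage sensor gene XPC at -0.07, -0.47 and -0.31. PHLDA1 was at 0.20, 0.11 and 0.00 and PHLDA2 at 0.37, 0.26 and 0.04. PFKFB3, whose enzyme makes the glycolytic activator that TIGAR degrades, had signals of 7.90 with No.10-3, 7.94 with 0.5 µM C-30 and 8.03 with 2 µM C-30, against 8.95 with vehicle. PFKFB3 was thus at least 2-fold lower with No.10-3, at -1.04, and just so with 0.5 µM C-30, and stood at -0.91 with 2 µM C-30, above background on every array. SESN3, under the floor, was at 1.03, 0.28 and -0.26, and CRYZ, a quinone oxidoreductase gene related to TP53I3, at -0.03, 0.48 and 0.45.

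**Figure D4:**
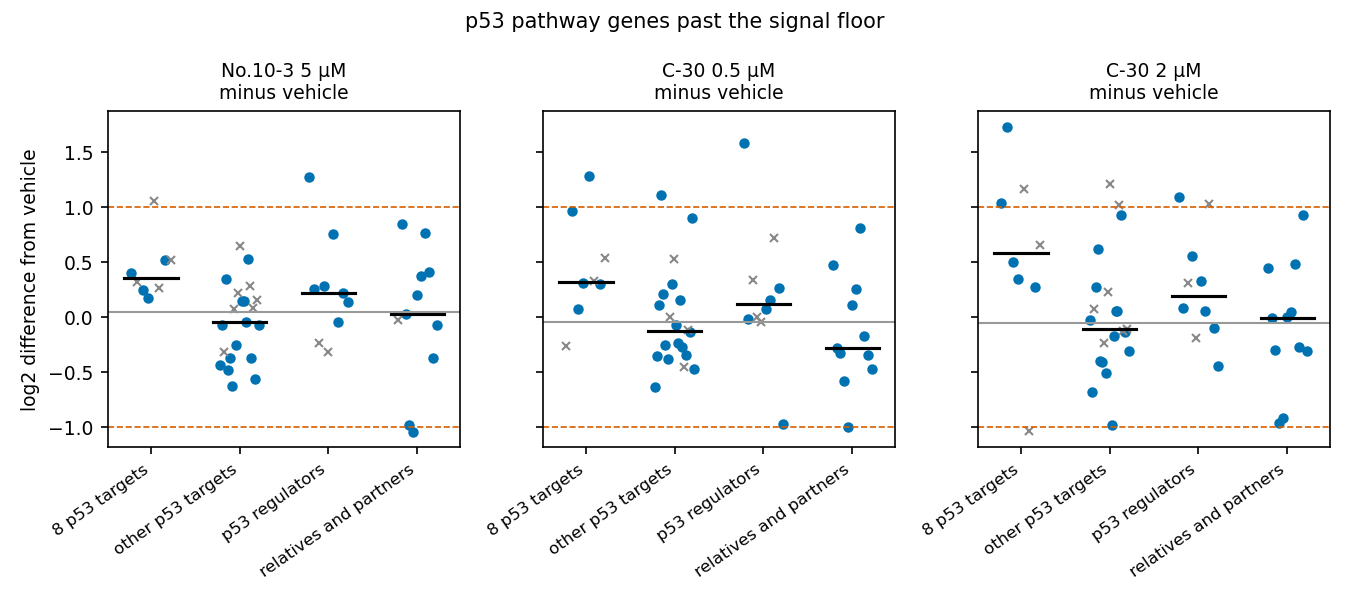
Log2 difference from vehicle of genes past the floor in 4 lists, for each treated array. Circles are genes above background on at least 1 of the 2 arrays, crosses genes within background on both, black bars the list medians, the grey line the median of all genes and dashed lines the 2-fold limits. The 8 p53 targets past the floor lie mostly above 0 on all 3 arrays, and the other p53 targets lie on both sides of it.

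The genes whose 3 differences from vehicle lay nearest to those of GADD45A and RRM2B, the 2 with the largest differences among those above background on at least 1 array, were found by Euclidean distance among 9629 genes past the floor. For GADD45A they were ZNF442, SMIM17, BNIP2, RASA2 and HBP1, at distances of 0.23 to 0.27, and 29 genes lay within 0.5. HBP1, which encodes a transcriptional repressor of the cell cycle, was the only one of the 5 above background on all 4 arrays, with signals of 8.26 with No.10-3, 9.02 with 0.5 µM C-30 and 9.60 with 2 µM C-30, against 8.09 with vehicle. For RRM2B they were CIP2A, ITGAV, IL6ST, RAD50 and PTAR1, at distances of 0.10 to 0.14, and 116 genes lay within 0.5. CIP2A, IL6ST and PTAR1 were above background on all 4 arrays. RAD50, a subunit of the complex that senses DNA breaks, was 1.00 above vehicle with No.10-3, 1.26 with 0.5 µM C-30 and 1.05 with 2 µM C-30. The vehicle signal of RAD50, 6.57, was within background. Likeness over 3 differences that share the vehicle array describes these arrays only.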

How the data were processed

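Total RNA of DU145 cells was biotin-labelled with a whole-transcript kit and hybridised to 1 array per condition, per the labels. The deposited values are log2 signals per probe set, for which the submitters' processing notes name RMA and Affymetrix Expression Console 1.3.0. RMA as usually run corrects background and quantile-normalizes the arrays. The log base was inferred from the range of the values, and the highest named signal was 19.66, above what a scanner spans in log2, so 2-fold holds on the scale of these values only. The build and the probe annotation used then are not stated in the sources used here.

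The platform annotation gave 1 gene symbol for 17709 of 24351 probe sets, several for 0 and none for 6642. Symbols were updated by Entrez identifier (17709 matched), and the mean was taken for 20 genes with several probe sets. Differences were taken per gene over the whole table, with no test. The 9 genes, the lists and the rule for named genes (all 9 genes, p53 regulators, relatives and partners, the 6 largest differences of the wider target list, the 5 nearest patterns of 2 genes) were chosen with earlier results of these data known. Counting was tested on simulated data. Python 3.11.15, numpy 2.4.6, pandas 2.3.3, statsmodels 0.14.6 and matplotlib 3.10.9 were used. The number of arrays limits the precision. Alternatives were a 1.5-fold threshold, other floors, 3 scalings, the brightest probe set and the series value table, which differed from the arrays' own tables by at most 5.0e-05.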

Additional observations from a re-analysis of the deposited data

How the results depend on the processing

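The direction of all 9 genes' differences was the same under quantile normalization over named genes, lowess correction (fraction 0.3), centring, the brightest probe set and the series value table, except TP53I3 between the doses of C-30. Counts of p53 targets past 2-fold depended on the floor and on values near the threshold. With No.10-3 the count of 1 became 0 with a floor at the 75th percentile (7.90), with a floor at the negative control level, after quantile normalization and after centring. Quantile normalization shifted the all-gene median by -0.07 and centring by -0.09. With 0.5 µM C-30 the count of 1 became 2 at 1.5-fold and 0 with the floor at the 75th percentile. With 2 µM C-30 the count of 4 became 1 with the floor at the 75th percentile, 2 with the negative control level, 3 after centring and 5 at 1.5-fold. Between the doses the count of 2 became 0 and 1 with these floors and 3 at 1.5-fold, and the median moved to 0.59 over the 2 genes past the higher floor. Fewer genes entered under the higher floors. Relaxing the p53 pair to 3 mismatches, chosen after seeing the data, gave 3 genes in place of 1. Of all genes past 2-fold, 76.7% were higher with No.10-3 but 61.4% after centring and 67.0% after quantile normalization. For 2 µM C-30 43.2% were higher, but 55.4% after centring. No paired analysis was possible because each condition has 1 array, and for the same reason no replicate could be left out. Most of the 9 genes lie near background, which limits their differences.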

Other observations

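Stress genes driven by the transcription factor ATF4, a pathway known to reach GADD45A and SESN2 without p53, were measured for all 10 genes listed. SESN2 is itself among the 10, and the part of this pathway in the values of GADD45A was not tested. ATF3, an early stress transcription factor, had signals of 6.13 with No.10-3, 7.41 with 0.5 µM C-30 and 9.40 with 2 µM C-30, against 7.24 with vehicle. DDIT3, the gene of the stress factor CHOP, had signals of 6.03 with No.10-3, 6.51 with 0.5 µM C-30 and 7.76 with 2 µM C-30, against 6.36 with vehicle. With 2 µM C-30 8 of the 10 were higher than with vehicle, including ATF3 and DDIT3 past 2-fold, and the median was 0.42. Of all genes past the floor, 46.4% were higher and 10.8% were past 2-fold in either direction. The vehicle signals of ATF3 and DDIT3 were within background. With 0.5 µM C-30 6 were higher and 4 lower, none past 2-fold, with a median of 0.08, where 46.9% of all genes were higher and 6.17% past 2-fold. With No.10-3 9 of the 10 were lower, with a median of -0.42, and the 1 past 2-fold, ATF3, was within background. Of all genes past the floor on that array, 54% were higher and 1.32% were at least 2-fold lower. The list was chosen with earlier results of these data known.

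Nucleotide excision repair genes, the pathway of DDB2, were lower in 10 of 12 measured cases with 2 µM C-30, with a median of -0.23. Of the 11 past the floor, 9 were lower, with a median of -0.17 and 1 past 2-fold. Of all genes past the floor on that comparison, 46.4% were higher and 6.15% were at least 2-fold lower. With No.10-3 and with 0.5 µM C-30, 8 of the 12 were lower in each case and none was past 2-fold. The medians were -0.08 with No.10-3 and -0.09 with 0.5 µM C-30. With No.10-3, 7 of the 10 past the floor were lower, where 54% of all genes were higher and 5.68% past 2-fold. With 0.5 µM C-30, 8 of the 11 past it were lower, where 46.9% of all genes were higher and 6.17% past 2-fold. The gene past 2-fold, the helicase gene ERCC2, had signals of 9.92 with No.10-3, 9.88 with 0.5 µM C-30 and 8.77 with 2 µM C-30, against 10.62 with vehicle, all above background. The endonuclease gene ERCC4 was at 6.43 with 2 µM C-30, which is within background, against 7.33 with vehicle, just above it. CETN2, which encodes a partner of XPC, was higher at 9.07 with 2 µM C-30, against 8.20 with vehicle.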
